A study of Mus musculus with 12 samples.

Results

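The genes that encode the 4 reprogramming factors, Pou5f1 (Oct4), Sox2, Klf4 and Myc, were followed while fibroblasts of mouse embryos (MEFs) were turned into induced pluripotent stem cells (iPSCs). They were taken by symbol and are 4 of the 24098 genes in the expression table. All 4 were among the 14178 genes that reached 1 FPKM in at least 1 of the 12 mRNA-Seq libraries (fragments per kilobase of transcript, scaled to library depth, a level per length that allows a comparison between genes).

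Each of 12 conditions had 1 library and no replicate, and the differences given are descriptions without a test or a replicate check. MEFs came from mid-gestation mouse embryos that carry an IRES-EGFP cassette behind the stop codon of Oct4, and they were infected with pMXs retroviruses for Oct4, Sox2, Klf4 and c-Myc (OSKM) in the presence of polybrene, then kept in FF medium, which contains LIF, bFGF, ascorbic acid and CHIR99021, without feeder cells. D0 was uninfected MEFs and D3 unsorted cells 3 days after induction. A sort by the fibroblast surface protein Thy-1 gave D6T-, D6T+, D9T- and D9T+ on days 6 and 9, and a sort by SSEA-1, a carbohydrate on pluripotent cells, gave D12S+, D12S-, D16S+ and D16S- on days 12 and 16. The study treats D6T-, D9T-, D12S+ and D16S+ as the successful route and the other fractions as the unsuccessful one. iPSCs and mouse embryonic stem cells (mESCs, line ESD3), were the end points, and the labels give FF medium for both while the study's methods name other LIF media for such lines. Each label stands for 1 population, and no gate selected cells by virus load.

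Oct4 is a POU-domain protein and Sox2 an HMG-box protein, and they bind together at composite sites in the enhancers of pluripotency genes, those of Pou5f1 and Sox2 included. Klf4 is a zinc-finger protein that is active both in epithelia and in naive pluripotent cells. Myc dimerises with Max at E-boxes and drives genes of growth and ribosome production, and retroviral vectors of this kind are known to be silenced as cells become pluripotent.

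The pMXs vectors carry the mouse coding sequences, so a read inside a coding sequence can come from the virus or from the endogenous gene, and every FPKM here holds both. In bulk samples, fewer cells of a type and less RNA per cell also cannot be told apart. In the mm9 build with the GENCODE M1 annotation, Pou5f1 lies at chr17:35642982-35647721 (plus strand), Sox2 at chr3:34548927-34551383 (plus strand), Klf4 at chr4:55540013-55545347 (minus strand) and Myc at chr15:61816946-61821929 (plus strand). The coding sequence makes up 78.6% of the longest coding transcript of Pou5f1, 39.1% of that of Sox2, 46.9% of that of Klf4 and 56.5% of that of Myc. A transcript that covers the coding sequence alone would therefore yield fewer FPKM per molecule for Sox2 than for Pou5f1, and the part of this in the ratios between factors was not tested.

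Amplicons of the study's own real-time PCR primers show the same ambiguity, and they are printed because each lies wholly inside a coding sequence that virus and chromosome share. The qPCR readings were not used here. Capitals mark the primer ends, and the right end is the reverse complement of the reverse primer. The Oct4 amplicon of 217 bases spans exons 4 to 5 of Pou5f1 (chr17:35647068-35647432, plus strand), the Sox2 amplicon of 207 bases lies in its single exon (chr3:34549826-34550032, plus strand), and the Klf4 amplicon of 138 bases spans exons 2 to 3 (chr4:55543726-55544509, minus strand). They are written 5′ to 3′ on the gene's strand.
Pou5f1: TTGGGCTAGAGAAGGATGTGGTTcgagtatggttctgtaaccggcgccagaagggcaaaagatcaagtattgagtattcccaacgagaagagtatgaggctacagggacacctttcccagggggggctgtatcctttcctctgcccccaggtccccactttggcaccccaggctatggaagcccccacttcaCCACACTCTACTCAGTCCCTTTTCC
Sox2: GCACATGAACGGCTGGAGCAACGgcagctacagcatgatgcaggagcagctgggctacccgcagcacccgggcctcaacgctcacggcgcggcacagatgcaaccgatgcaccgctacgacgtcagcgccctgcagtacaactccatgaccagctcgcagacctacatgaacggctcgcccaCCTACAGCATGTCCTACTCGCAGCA
Klf4: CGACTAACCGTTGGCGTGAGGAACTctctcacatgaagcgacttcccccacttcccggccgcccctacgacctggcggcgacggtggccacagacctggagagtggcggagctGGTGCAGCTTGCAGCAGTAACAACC

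Near copies elsewhere in the genome can remove reads, since the authors dropped reads with more than 1 locus. Against the mm9 genome, Pou5f1 had 1 further match of at least 100 bases at 95% identity or more, on chromosome 1, that covered 28.6% of its transcript. Klf4 had 3 such matches, on chromosomes 11, 14 and 15, which together covered 24.6% of its transcript. Sox2 and Myc had 0. The levels of Pou5f1 and Klf4 may therefore be understated.

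Before infection the factor genes were low or moderate. In D0, Pou5f1 was at 1.99 FPKM, Sox2 at 1.21 FPKM, Klf4 at 11.7 FPKM and Myc at 27.3 FPKM. Myc thus made up 64.8% of the summed level of the 4 genes in MEFs, and Pou5f1 only 4.71%. By rank, Myc stood at place 3570 of 24098 genes in D0 and Sox2 at place 10876.

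Pou5f1 measured 858 FPKM in D3, 1935 against 587 FPKM in the Thy-1- and Thy-1+ fractions of day 6, and 2769 against 1617 FPKM in those of day 9. The SSEA-1+ and SSEA-1- fractions held 2161 against 2737 FPKM on day 12 and 1157 against 2383 FPKM on day 16, while iPSCs held 1516 FPKM and mESCs 1292 FPKM. From D3 to day 16, Pou5f1 stayed within a 4.72-fold range over 9 libraries. Its highest value, in D9T-, ranked 17 among all genes of that library, and the end points lay inside the range of the reprogramming cells.

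Sox2 measured 427 FPKM in D3, 436 against 181 FPKM in the Thy-1- and Thy-1+ fractions of day 6, and 258 against 301 FPKM in those of day 9. The SSEA-1+ and SSEA-1- fractions held 230 against 368 FPKM on day 12 and 146 against 318 FPKM on day 16, while iPSCs held 109 FPKM and mESCs 162 FPKM. Sox2 had the narrowest range of the 4 genes, 3.00-fold from D3 to day 16, and unlike Pou5f1 its highest values were those of D6T- and D3.

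Klf4 measured 359 FPKM in D3, 587 against 242 FPKM in the Thy-1- and Thy-1+ fractions of day 6, and 658 against 586 FPKM in those of day 9. The SSEA-1+ and SSEA-1- fractions held 456 against 762 FPKM on day 12 and 127 against 691 FPKM on day 16, while iPSCs held 56.5 FPKM and mESCs 62.0 FPKM. The end points were below every reprogramming library for Klf4, and D16S+ was the nearest to them.

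Myc measured 378 FPKM in D3, 542 against 202 FPKM in the Thy-1- and Thy-1+ fractions of day 6, and 605 against 432 FPKM in those of day 9. The SSEA-1+ and SSEA-1- fractions held 318 against 627 FPKM on day 12 and 92.6 against 599 FPKM on day 16, while iPSCs held 44.0 FPKM and mESCs 4.87 FPKM. Myc was the one factor with a lower value in mESCs than in uninfected MEFs, and it had the widest range from D3 to day 16, 6.78-fold.

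**Figure D1:**
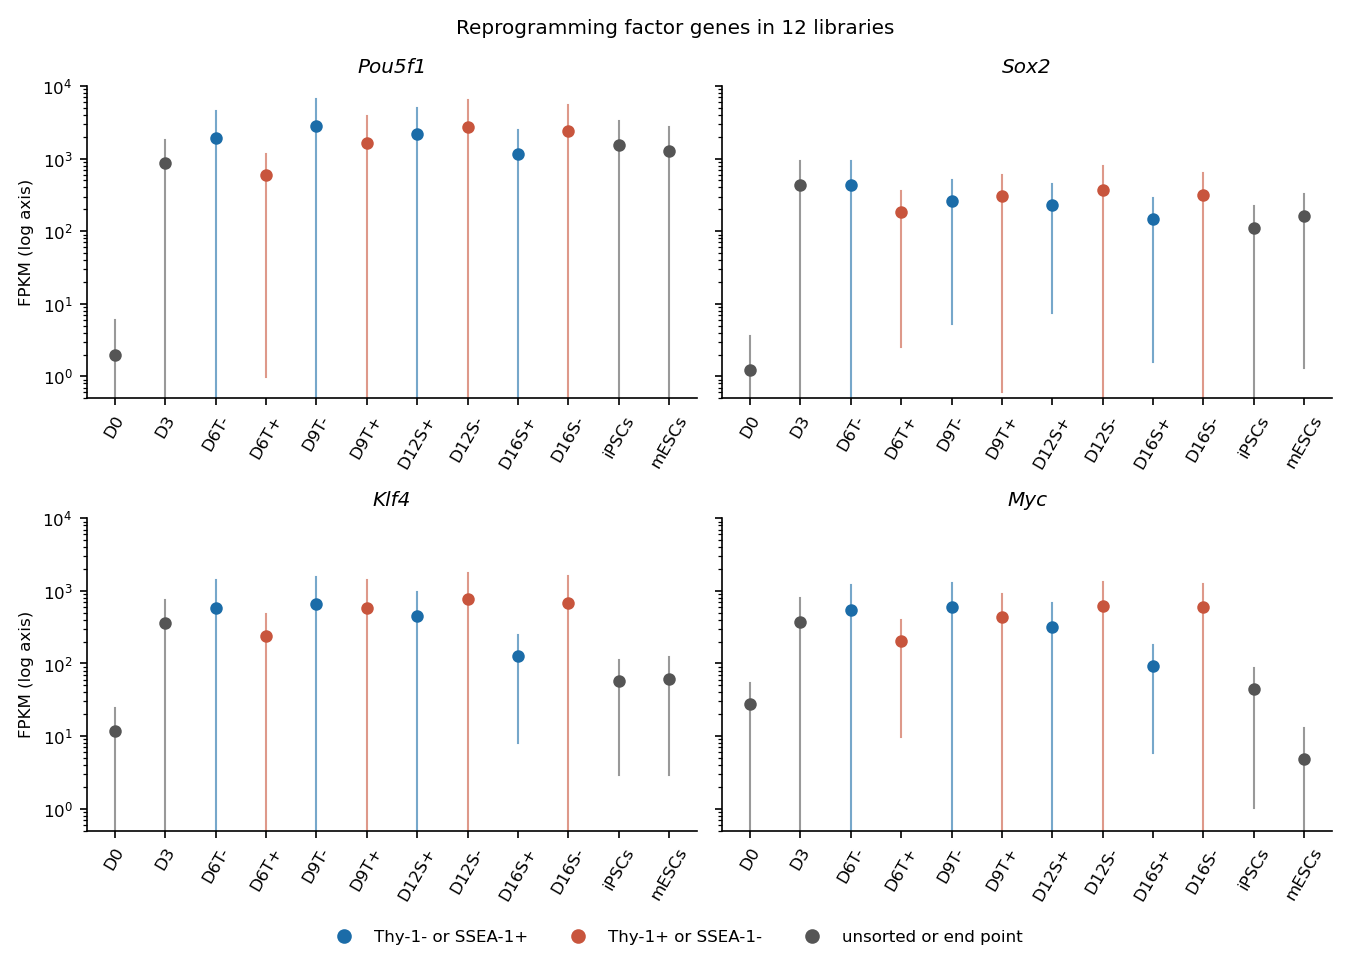
FPKM of the 4 factor genes in each of the 12 libraries, on a log axis, with 1 point per library and a bar for the interval deposited with each value. Bars that reach 0 stop at the lower edge of the axis, and for Klf4 and Myc the D16S+ points (127 and 92.6 FPKM) lie between the other reprogramming libraries and the end points.

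The order of the libraries was set beside the deposited intervals, which cuffdiff models and which hold no variation between replicates of a condition. Their half-width was between 93.6% and 150% of the FPKM over the 48 values, with a median of 106%. For each gene, all 11 pairs of neighbours in the order from highest to lowest had overlapping intervals. Of 66 pairs of libraries per gene, 2 lay apart for Sox2, D0 against D9T- and D0 against D12S+, and 0 lay apart for Pou5f1, Klf4 and Myc. For example, the interval of Pou5f1 was 0 to 5.98 FPKM in D0 and 0 to 1819 FPKM in D3, which overlap although the values differ 431-fold. Intervals this wide reach 0 or come near it, so an overlap says little about whether libraries differ.

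To set cells after infection beside cells before it, D3 was compared with D0. All 4 genes were at least 2-fold higher in D3, against a background of 5.76% of the 14178 genes, and 0 of 4 were at least 2-fold lower (background 8.67%). The log2 difference, here and below on log2(FPKM + 1), was 8.17 for Pou5f1, 7.59 for Sox2, 4.83 for Klf4 and 3.74 for Myc. Pou5f1 and Sox2 ranked 2 and 3 among all genes by this difference, Klf4 ranked 23 and Myc 39. Of the genes past 2-fold, 39.9% were higher in D3, or 56.5% when libraries were scaled to the same total FPKM. In FPKM, the levels reached were closer together than the differences, 858 FPKM for Pou5f1 and 359 to 427 FPKM for the others, and the genes with the lower D0 levels, Pou5f1 and Sox2, had the larger differences.

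On day 6 all 4 genes were higher in the Thy-1- fraction. Pou5f1 was 3.30-fold, Sox2 2.41-fold, Klf4 2.42-fold and Myc 2.68-fold higher in D6T- than in D6T+, log2 differences of 1.72, 1.27, 1.27 and 1.42. All 4 thus passed 2-fold upwards, as 2.93% of all genes did, and 0 passed it downwards, as 9.47% did. Against D3, the factors in D6T+ were lower, with log2 differences of -0.55 for Pou5f1, -1.24 for Sox2, -0.57 for Klf4 and -0.90 for Myc. In D6T- they were 1.17, 0.03, 0.71 and 0.52 higher than in D3. The estimated depth relative to D0 was 1.56 in D6T- and 1.26 in D6T+, and Thy1 itself was at 3.24 and 477 FPKM in them. Fibroblast markers summed to 818 FPKM in D6T- (8 of 10 at or above 1 FPKM) and 4602 FPKM in D6T+ (10 of 10), and the part of the fibroblast content in the factor levels was not tested.

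On day 9 the Thy-1 fractions were closer together. The log2 difference of D9T- against D9T+ was 0.78 for Pou5f1, 0.48 for Myc, 0.17 for Klf4 and -0.22 for Sox2, and 0 of 4 genes passed 2-fold in either direction (background 1.81% higher and 6.45% lower). For Pou5f1, Klf4 and Myc, the Thy-1+ side differed more between the days than the Thy-1- side did. D9T+ was above D6T+ by 1.46 for Pou5f1, 0.73 for Sox2, 1.27 for Klf4 and 1.09 for Myc, while D9T- differed from D6T- by 0.52, -0.75, 0.17 and 0.16. Fibroblast markers summed to 604 (D9T-) and 3233 FPKM (D9T+), a gap of the same direction as on day 6.

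On day 12 all 4 genes were lower in SSEA-1+ cells, each by less than 2-fold. D12S+ differed from D12S- by -0.34 for Pou5f1, -0.67 for Sox2, -0.74 for Klf4 and -0.98 for Myc, with 0 of 4 past 2-fold in either direction (background 4.79% higher and 3.03% lower). D12S- was close to D9T- in Pou5f1 (-0.02), Myc (0.05) and Klf4 (0.21), and above it in Sox2 (0.51). Fibroblast markers summed to 493 (D12S+) and 1219 FPKM (D12S-), and pluripotent markers to 2051 and 87.2 FPKM, and their part in the factor levels was not tested.

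On day 16 all 4 genes were at least 2-fold lower in SSEA-1+ cells, against a background of 15.2% of genes lower and 11.8% higher, with 0 members higher. Pou5f1 was 2.06-fold and Sox2 2.19-fold lower in D16S+ than in D16S-, close to the threshold. Klf4 was 5.44-fold and Myc 6.47-fold lower, log2 differences of -2.44 and -2.68. When libraries were scaled to the same total FPKM, the log2 difference of Pou5f1 was -0.93 and no longer passed 2-fold, which left 3 of 4. The fractions also differed in depth, at 1.51 and 0.999 relative to D0, and in cell markers. Fibroblast markers summed to 75.1 (D16S+) and 872 FPKM (D16S-), and pluripotent markers to 4674 and 130 FPKM. Their part in the factor levels was not tested.

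Between days 12 and 16 the SSEA-1+ side differed more than the SSEA-1- side. From D12S+ to D16S+ the log2 difference was -0.90 for Pou5f1, -0.66 for Sox2, -1.84 for Klf4 and -1.77 for Myc. From D12S- to D16S- it was -0.20, -0.21, -0.14 and -0.07. SSEA-1- cells of day 16 thus held the factors close to the levels of day 12, and against D3 they were at 278% for Pou5f1, 74.5% for Sox2, 192% for Klf4 and 158% for Myc. D16S+ was at 135%, 34.1%, 35.3% and 24.5% of D3.

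**Figure D2:**
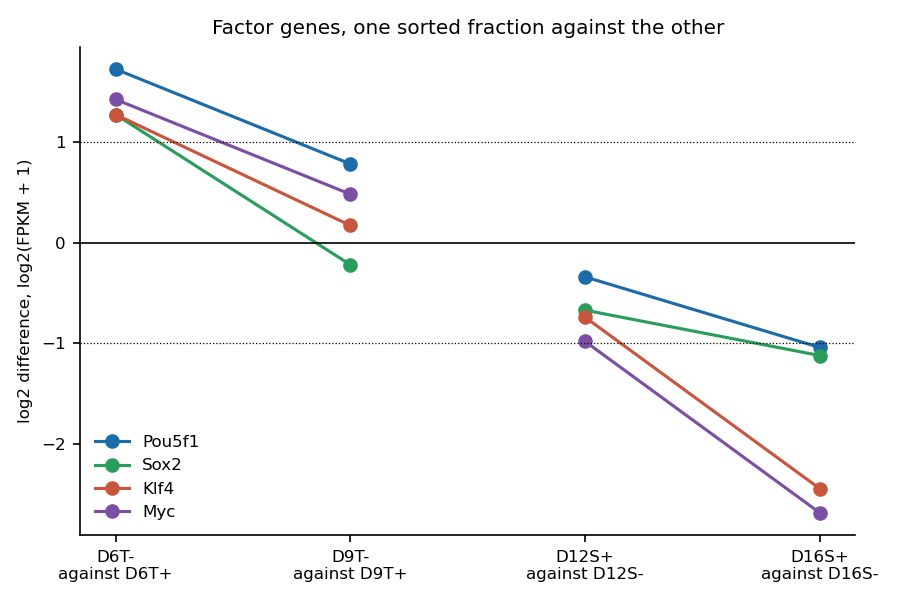
Log2 difference in log2(FPKM + 1) between the sorted fractions of each day for the 4 factor genes, with 1 library per fraction, and dotted lines at 2-fold. Lines join days sorted on the same marker, Thy-1 for days 6 and 9 and SSEA-1 for days 12 and 16, and the values go from 1.27 to 1.72 on day 6 to between -1.04 and -2.68 on day 16.

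Next, D16S+ and iPSCs were set beside the end points. In iPSCs against D16S+ the log2 difference was -1.15 for Klf4 and -1.06 for Myc, so 2 of 4 genes were at least 2-fold lower (background 7.77%) and 0 at least 2-fold higher (background 4.38%). Pou5f1 (0.39) and Sox2 (-0.41) differed by less. Of all genes past 2-fold here, 36.1% were higher in iPSCs, or 22.9% with the scaling to the same total FPKM.

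Against mESCs, iPSCs differed by 0.23 in Pou5f1, -0.57 in Sox2 and -0.13 in Klf4. Myc was the exception, 9.04-fold higher in iPSCs than in mESCs (log2 2.94, rank 48 of 14178 genes), so 1 of 4 genes was at least 2-fold higher (background 6.79%) and 0 lower (background 7.41%). The interval of Myc was 1.01 to 86.9 FPKM in iPSCs and 0 to 12.8 FPKM in mESCs, which overlap, as the intervals of nearly all pairs of libraries do. Against D0, Myc in iPSCs was 1.61-fold higher.

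Read against mESCs, the day 16 fractions separated by factor. In D16S+, Pou5f1 was at 0.896 and Sox2 at 0.898 of the mESC level, Klf4 at 2.05 times and Myc at 19.0 times that level. In D16S-, the ratios were 1.84 for Pou5f1, 1.96 for Sox2, 11.1 for Klf4 and 123 for Myc. Klf4 and Myc were thus the factors by which SSEA-1- cells stood furthest from mESCs, and for Pou5f1 and Sox2 they stood within 2-fold of them.

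The composition of the factor mix differed between the libraries as well. Summed over the 4 genes, the level was 42.2 FPKM in D0, 2022 FPKM in D3, 4494 FPKM in D12S-, 3991 (D16S-) and 1522 FPKM (D16S+), close to 1521 FPKM in mESCs and 1726 FPKM in iPSCs. As a share of the total FPKM of a library this was 0.00651% in D0, 0.850% in D12S- and 0.256% in mESCs. Pou5f1 held 42.4% of the sum in D3, 59.7% in D16S-, 76.0% in D16S+, 87.9% in iPSCs and 84.9% in mESCs. The share of Myc was 18.7% in D3, 15.0% in D16S-, 6.08% in D16S+, 2.55% in iPSCs and 0.320% in mESCs.

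Klf4 and Myc stayed near one ratio from D3 to day 16 while their levels differed. The ratio of Klf4 to Myc was 0.427 in D0, between 0.950 in D3 and 1.44 in D12S+ over the 9 libraries of D3 to day 16, and 1.29 in iPSCs, but 12.7 in mESCs. Its value was 1.37 in D16S+ and 1.15 in D16S-, although both genes differed more than 5-fold between those fractions. iPSCs were thus close to mESCs in the level of Klf4 and to the reprogramming cells in its ratio to Myc. Over D3 to day 16 the correlation of Klf4 and Myc was 0.98 (Pearson) and 0.97 (Spearman) across 9 libraries, which share the infection, the sort and the depth of each library.

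Pou5f1 and Sox2 did not stay near one ratio. Pou5f1 was 2.01 times Sox2 in D3, 4.44 times in D6T-, 10.7 times in D9T-, 9.38 times in D12S+, 7.95 times in D16S+, 13.9 times in iPSCs and 7.97 times in mESCs. In the other fractions it was 3.25 times Sox2 in D6T+, 5.37 times in D9T+, 7.43 times in D12S- and 7.50 times in D16S-. Their correlation over the 9 libraries was 0.35 (Pearson) and 0.22 (Spearman). With D0 and the end points included, over all 12 libraries, it was 0.95 (Pearson) and 0.50 (Spearman). Over the same 12, Klf4 and Myc had 0.88 and 0.97, so the contrast between the pairs depends on the libraries and the measure. Over the 9 libraries, the remaining pairs of factors lay between these pairs, at 0.66 to 0.81 (Pearson) and 0.57 to 0.85 (Spearman). The ratio of Pou5f1 to Klf4 separated D16S+ (9.11) from D16S- (3.45), and it was 26.8 in iPSCs and 20.8 in mESCs.

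**Figure D3:**
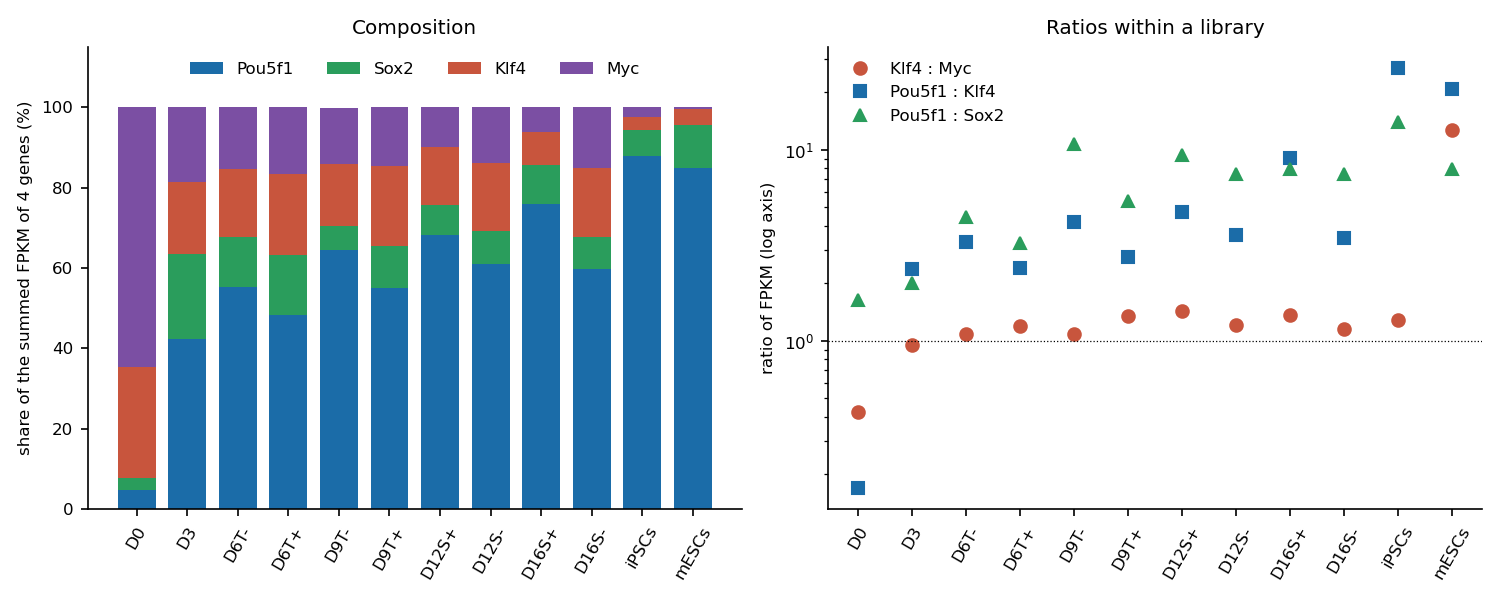
Left, share of each factor gene in the summed FPKM of the 4 genes, in percent, as stacked bars per library; right, ratios of FPKM between pairs of factor genes within each library, on a log axis with a dotted line at 1. The ratio of Klf4 to Myc stays between 0.950 and 1.44 from D3 to day 16 and is 12.7 in mESCs.

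Relatives of the factors that were not delivered by virus were examined next, since their reads come from the chromosome. The list held 22 symbols of such Pou, Sox, Klf and Myc genes, with Mycl also entered under its older symbol Mycl1. Of these symbols, 21 were in the table and 20 reached 1 FPKM. In D16S+ against D16S-, 7 of 20 were at least 2-fold higher and 1 lower (11.8% and 15.2% over all genes), with a median log2 difference of 0.43 against -0.02 over all genes. On day 6 the counts were 2 higher and 1 lower (2.93% and 9.47% over all genes), with a median of -0.03 against 0.00. The list was chosen with earlier results of these data known. It holds genes of pluripotent or embryonic cells, such as Mycn, Klf2, Klf5 and Sox15, so its direction is not independent evidence.

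Among Myc relatives, Mycn, the N-Myc gene of embryonic cells, ran opposite to Myc on day 16. Before infection Mycn had 0.843 FPKM, and it had 0.414 FPKM in D3, 4.13 FPKM in D9T-, 31.9 (D12S+) and 2.62 FPKM (D12S-). It was at 36.4 (D16S+) and 3.04 FPKM (D16S-), and at 17.8 (iPSCs) and 22.6 FPKM (mESCs). In mESCs Mycn was thus above Myc (4.87 FPKM), and in every library from D3 to day 16 it was below. Mycl, the L-Myc gene, was at 0.858 to 2.10 FPKM from D3 to day 16, and at 10.8 (iPSCs) and 8.67 FPKM (mESCs).

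Among Klf relatives, Klf2 and Klf5, which share targets with Klf4 in pluripotent cells, were also higher in SSEA-1+ cells. Klf2 was at 12.7 FPKM in D0, 55.6 FPKM in D12S+ against 9.58 FPKM in D12S-, 83.8 FPKM in D16S+ against 14.0 FPKM in D16S-, 161 (iPSCs) and 84.6 FPKM (mESCs). Klf5 was at 24.7 against 7.93 FPKM in the day 12 fractions, 45.2 against 13.1 FPKM on day 16, 90.3 (iPSCs) and 74.7 FPKM (mESCs). In both end points Klf2 and Klf5 exceeded Klf4, and in D16S- both were below it. Klf9 was at 33.1 (D16S+) and 13.2 FPKM (D16S-), a log2 difference of 1.26. Klf3, Klf6, Klf7 and Klf10 differed by -0.25, -0.41, -0.73 and -0.57 on day 16, each under 2-fold.

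Among Sox relatives, Sox15, a gene expressed in embryonic stem cells, was at 1.03 FPKM in D0, 66.2 (D12S+) and 13.4 FPKM (D12S-). It was at 98.8 (D16S+) and 19.1 FPKM (D16S-), and at 45.5 (iPSCs) and 55.1 FPKM (mESCs). Sox4 ran the other way, at 38.4 FPKM in D0, 3.68 (D16S+) and 22.3 FPKM (D16S-). Sox11 (3.77 and 3.92 FPKM) and Sox9 (0.380 and 1.43 FPKM) were low in both day 16 fractions, and Sox1, Sox3 and Sox17 were under 1 FPKM in both.

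Among Pou relatives, Pou2f1, a widely expressed octamer-binding gene, was at 6.57 (D16S+) and 2.81 FPKM (D16S-). Pou3f1 was at 7.35 and 3.03 FPKM, and Pou2f2 at 1.91 and 0.0887 FPKM. Pou2f3 was at 1.01 and 0.561 FPKM in these fractions and at 11.1 FPKM in mESCs. These 4 genes were named after their values were seen. None of the Pou relatives reached the level of Pou5f1 in any library from D3 on.

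**Figure D4:**
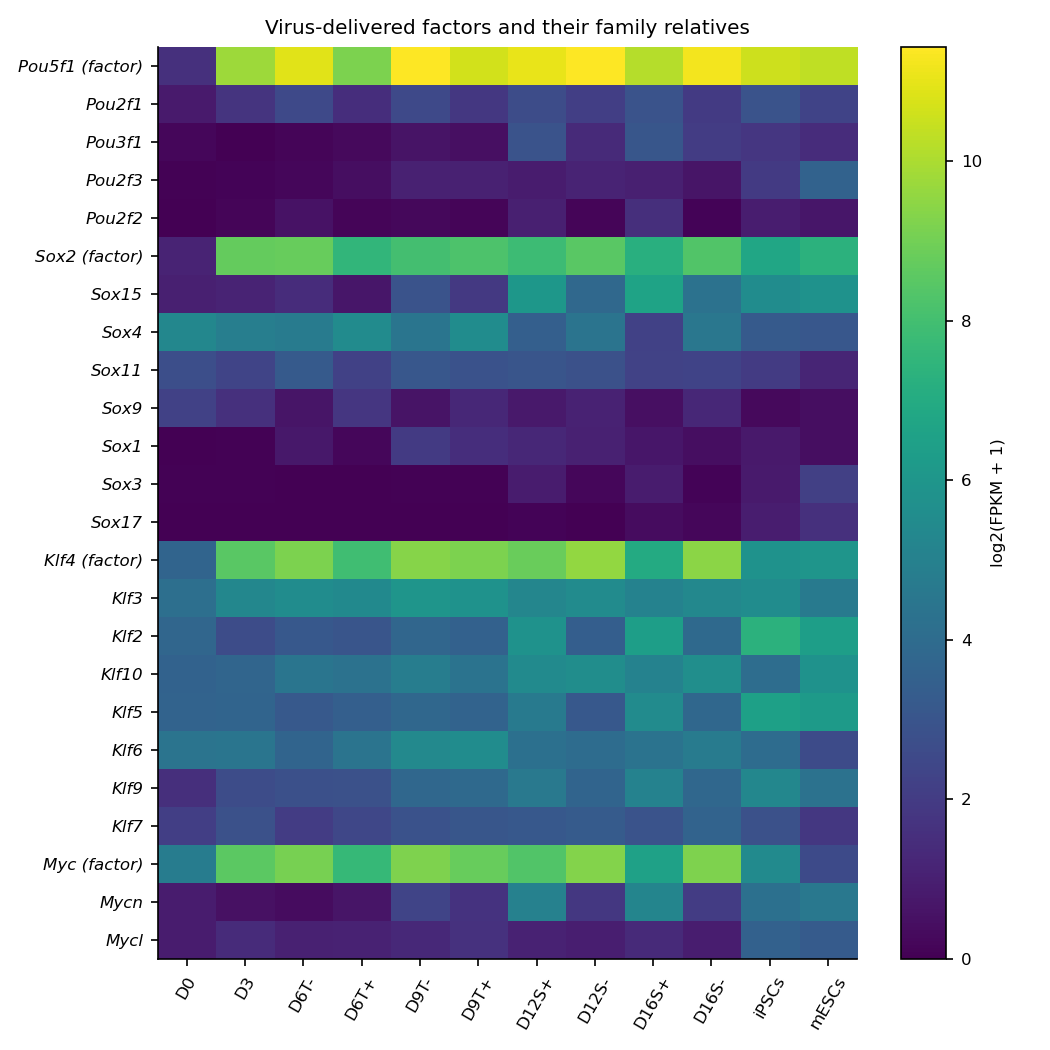
Heat map of log2(FPKM + 1) for the 4 factor genes (labelled factor) and their 20 relatives, grouped by family, in the 12 libraries. Mycn, Klf2, Klf5 and Sox15 are brighter in D12S+ and D16S+ than in D12S- and D16S-, where Klf4 and Myc are brighter instead.

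Genes that Oct4 and Sox2 are known to bind and regulate in pluripotent cells were then compared with the factor levels. All 24 genes of this list reached 1 FPKM. On day 6, when the factors were higher in D6T-, 5 were at least 2-fold higher and 2 lower in that fraction (2.93% and 9.47% over all genes). The median log2 difference was 0.29 against 0.00 over all genes, or 0.97 with a pseudocount of 0.1. On day 16, when the factors were lower in D16S+, 23 of 24 were at least 2-fold higher there and 0 lower (11.8% and 15.2% over all genes), with a median of 3.67. The days between had 11 of 24 higher in D9T- (1.81% over all genes) and 23 of 24 higher in D12S+ (4.79%). This list holds genes known to be high in these cells, so its direction is not independent evidence.

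Nanog, a core partner of Oct4 and Sox2, had 0.0889 FPKM before infection, 0.119 FPKM in D3, 0.735 (D6T-) and 0.300 FPKM (D6T+). It was at 18.5 (D9T-) and 7.30 FPKM (D9T+), 78.2 (D12S+) and 9.48 FPKM (D12S-), and 192 (D16S+) and 8.99 FPKM (D16S-). In iPSCs it was at 143 FPKM and in mESCs at 137 FPKM. D3 and D6T- therefore held Pou5f1 at 858 and 1935 FPKM with Nanog under 1 FPKM. Dppa5a was at 2.43 FPKM in D6T-, 3582 (D16S+) and 76.9 FPKM (D16S-), and Dppa3 at 85.0 (D16S+) and 0.970 FPKM (D16S-). Dppa4 (86.6 against 2.53 FPKM) and Utf1, a chromatin-bound gene of early embryos (372 against 19.9 FPKM), had the same direction. Spp1, which encodes the secreted osteopontin and is also made by fibroblasts, was the gene under 2-fold, at 229 and 202 FPKM. The genes of this list furthest above D6T+ in D6T- were Nr0b1 (20.9 against 2.17 FPKM) and Sall4 (5.12 against 0.663 FPKM), which were chosen after their values were seen.

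Known targets of Myc were compared with the level of Myc. Of 21 genes of ribosome production, nucleotide synthesis and growth, 2 were at least 2-fold higher and 0 lower in D6T- (2.93% and 9.47% over all genes), with a median log2 difference of 0.69. In D3, where Myc was 13.8-fold above D0, 4 were at least 2-fold higher than in D0 and 0 lower (5.76% and 8.67% over all genes). The median there was 0.61, and 19 of 21 were higher by any amount. In D16S+, where Myc was 6.47-fold lower, 4 were at least 2-fold higher and 1 lower (11.8% and 15.2% over all genes), with a median of 0.46, and 18 of 21 were higher by any amount. Npm1, a nucleolar chaperone, was at 415 (D6T-) and 206 FPKM (D6T+), and at 547 (D16S+) and 235 FPKM (D16S-). Cad, of pyrimidine synthesis, was at 79.5 FPKM in D16S+, a log2 difference of 1.16 to D16S-, and at 175 FPKM in mESCs, the library with the lowest Myc. Ccnd2, which encodes cyclin D2, was the one gene at least 2-fold lower in D16S+, at 17.4 (D16S+) and 143 FPKM (D16S-), and at 1.41 FPKM in iPSCs. Cdk4 was at 331 (D16S+) and 241 FPKM (D16S-). Ldha, of glycolysis, was at 855 and 1101 FPKM there and at 2410 FPKM in mESCs, and it was lower in D16S+ by less than 2-fold.

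Of 9 genes of the Myc and Max network, 2 were at least 2-fold higher and 1 lower in D16S+ (11.8% and 15.2% over all genes), with a median of -0.18, and 0 passed 2-fold in either direction on day 6 (median 0.29, with 2.93% and 9.47% over all genes). Max, the partner of Myc, lay between 41.1 FPKM in D0 and 61.4 FPKM in D3 in all 12 libraries. Mxd4, a Max partner that opposes Myc, was at 75.4 FPKM in D3, 8.07 (D16S+) and 27.1 FPKM (D16S-). Mxd3, of the same kind, was at 8.15 and 2.20 FPKM, and Mga, at 7.72 and 1.91 FPKM, was also higher in D16S+. Mlx was at 23.1 and 20.7 FPKM.

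Of 6 genes known as Klf4 targets, 3 were at least 2-fold higher and 3 lower in D16S+, with a median of -0.15 and shares of 11.8% and 15.2% over all genes. On day 6 the counts were 2 and 0 (median 0.04), with 2.93% and 9.47% over all genes. Alpl, the alkaline phosphatase of pluripotent cells, was at 168 (D16S+) and 13.8 FPKM (D16S-), and Trp53 at 221 and 99.3 FPKM. Cdkn1a, which encodes the cell cycle inhibitor p21 and is activated by Klf4, was at 152 and 601 FPKM. Ccnd1, which encodes cyclin D1, was at 35.3 and 246 FPKM. Krt19, an epithelial keratin, and Cdh1 were named here after their values were seen. Krt19 was at 94.2 and 261 FPKM, and Cdh1, opposite in direction to Klf4, at 130 and 44.6 FPKM. The 3 genes lower in D16S+, as Klf4 was, were thus Krt19, Cdkn1a and Ccnd1, and the 3 higher were Alpl, Trp53 and Cdh1. The list mixes genes that Klf4 is known to activate with genes it is known to repress, such as Trp53 and Ccnd1.

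Genes known to silence proviruses in embryonic cells were compared because the values hold retroviral reads. Of 19 genes, 1 was at least 2-fold higher and 1 lower in D6T- (median 0.40, with 2.93% and 9.47% over all genes), and 10 were higher and 0 lower in D16S+ (median 1.00, with 11.8% and 15.2% over all genes). Trim28, the corepressor that zinc-finger proteins bring to proviruses, measured 531 (D16S+) against 164 FPKM (D16S-), and was at 1065 (iPSCs) and 732 FPKM (mESCs). Dnmt3l, a cofactor of de novo DNA methylation, was at 0.456 (D6T-) and 3.49 FPKM (D6T+), at 172 (D12S+) and 3.31 FPKM (D12S-), and at 336 (D16S+) and 10.1 FPKM (D16S-). Dnmt3b was at 52.2 and 5.69 FPKM in D16S+ and D16S-, Uhrf1 at 125 and 33.6 FPKM, Sumo2 at 12.8 and 1.58 FPKM, and Ehmt2 at 73.8 and 86.2 FPKM. Zfp809, a zinc-finger gene of the list named after its values were seen, was at 8.67 (D16S+) and 7.78 FPKM (D16S-). Dnmt3l was also high in the end points, at 393 (iPSCs) and 168 FPKM (mESCs), as Trim28 was. This list too holds genes that are high in pluripotent cells, so its direction is not independent evidence. The part of these genes in the factor levels was not tested.

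**Figure D5:**
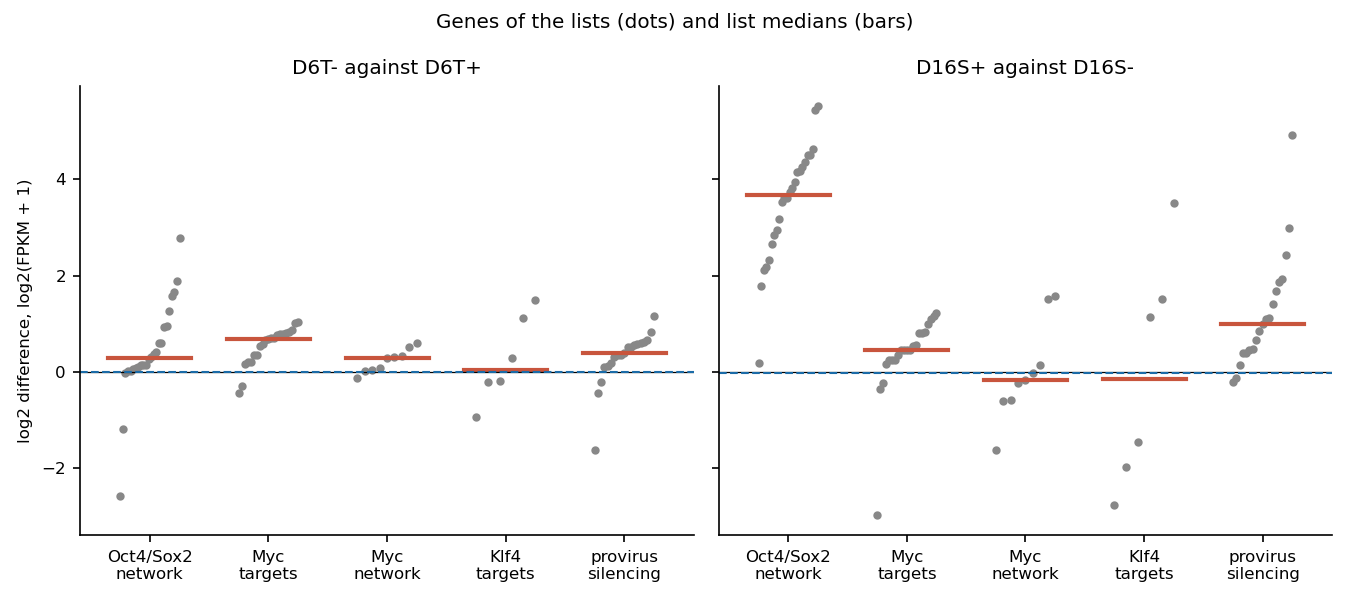
Log2 differences in log2(FPKM + 1) of the genes of 5 lists in D6T- against D6T+ (left) and D16S+ against D16S- (right), with 1 dot per gene, a bar at the list median and a dashed line at the median of all 14178 genes. The Oct4 and Sox2 network has a median of 0.29 on day 6 (0.97 with a pseudocount of 0.1) and 3.67 on day 16, and Myc targets have medians of 0.69 and 0.46.

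Other cell types could also differ between the fractions. Leukocyte markers summed to 15.0 (D6T-) and 145 FPKM (D16S-), the lowest and highest of the 12 libraries. In each library 1 to 4 of 6 were at or above 1 FPKM, and Ptprc and Emr1 were below 1 FPKM throughout. Cd68 made up most of the sum in D6T- and D16S-, and 48.0 of the 48.5 FPKM in mESCs. The leukocyte sum thus says little about leukocyte content. Lyz2 was at 9.47 FPKM in D0 and 0.509 FPKM in D16S-. The 4 kept markers were all lower in D16S+ than in D16S-, and in D6T- than in D6T+. Keratinocyte markers summed to 0.843 FPKM in D0 and to 36.9 and 81.2 FPKM in D16S+ and D16S-, with Trp63 below 1 FPKM in every library. Endothelial markers were at 34.4 and 8.47 FPKM and neural markers at 43.7 and 131 FPKM in the day 16 fractions, with Sox10 below 1 FPKM throughout. Within both sums the genes differed in direction, since Pecam1 was at 31.9 against 2.39 FPKM and Cdh5 at 1.89 against 5.77 FPKM, while Nes was at 15.8 against 110 FPKM and Tubb3 at 26.7 against 17.8 FPKM. The pluripotent markers summed to 2.11 FPKM in D0 and 4019 FPKM in mESCs, and the fibroblast markers to 9563 and 53.7 FPKM.

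The chromosomal surroundings of the factors were read for reads that spill over from neighbours. Sox2 lies inside the long noncoding gene Sox2ot, which shares its locus in the table, was listed at 0 in D0 and reached 0.909 FPKM in D9T-. Mir1897, in the same locus, was listed at 0 in all 12 libraries. Tcf19, the nearest gene on the right of Pou5f1, lay between 9.61 and 43.7 FPKM with the highest value in D0, and H2-Q10 on its left between 0.667 and 12.8 FPKM. The nearest genes of Klf4, Gm12505 (listed at 0 throughout) and Actl7b (at most 0.562 FPKM), and of Myc, D030024E09Rik (listed at 0) and H2afy3 (at most 0.0502 FPKM), were close to 0. On the left of Sox2, Dnajc19 was at 11.2 to 36.4 FPKM, and on its right Gm3143 reached 1.24 FPKM in mESCs. Outside the overlapping genes, distances ran from 1957 bases (Tcf19) to 1207529 bases (Actl7b). Dnajc19 lay 479026 and D030024E09Rik 210889 bases away, and the levels of such distant genes say little about spill-over.

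Finally, the genes whose pattern over the 12 libraries was most like each factor were taken by Pearson correlation of log2(FPKM + 1) among 14174 other genes. Adap1, an Arf GTPase-activating protein, came first for both Pou5f1 (0.952) and Sox2 (0.936), at 0.102 FPKM in D0, 46.8 FPKM in D3, 81.2 FPKM in D6T- and 22.8 FPKM in mESCs. Sox13 (0.937) and Als2cl (0.935) followed for Pou5f1, and Ralgapa2 (0.918) and Perp, a desmosome-associated membrane protein (0.913), for Sox2. For Klf4 the first were Avpi1 (0.968), Fetub (0.963) and Dock9, an activator of Cdc42 (0.963). For Myc they were Abca1, the cholesterol exporter (0.966), the zinc transporter Slc39a14 (0.964) and Vps13a (0.960). Abca1 was at 1.10 FPKM in D0, 34.4 FPKM in D12S- and 0.434 FPKM in mESCs, and had 3.72 (D16S+) and 27.6 FPKM (D16S-) on day 16. These are descriptions over 12 libraries, in which all genes of a library share its depth and infection. In D0, Adap1, Pou5f1 (1.99 FPKM) and Sox2 (1.21 FPKM) all lay far below their values in every other library. Such a library has a large weight in a Pearson correlation, and the likeness without D0 was not computed. The order depended on the measure, since by Spearman correlation 0 of these 3 genes remained among the first 3 for Pou5f1, Sox2 or Klf4, and 1 for Myc (Slc39a14).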

How the data were processed

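mRNA-Seq data of 12 mouse libraries, 1 per condition, were analysed. Per the labels, libraries were made with a stranded TruSeq mRNA kit. The authors mapped reads to mm9 with STAR, removed reads with more than 2 mismatches or more than 1 locus, and estimated FPKM with cuffdiff. Deposited values are FPKM with an interval each (95% by cuffdiff's default). Versions and annotation were not given in the sources used here. Another 12 columns of status words were not used. Total fragments are unknown. Depth relative to D0, from the steps of values under 0.5 FPKM, was 0.967 to 1.56, and total FPKM 484968 to 648264.

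Genes with at least 1 FPKM in at least 1 library were kept, and log2(FPKM + 1) was compared without a test, with counts past 2-fold as background. Functions were tested on simulated data. The members and lists were chosen with earlier results of these data known. Named genes were the members, the 3 most alike per member, neighbours, Nanog, Thy1, all kept Klf, Myc and Sox relatives and, per list, the 3 largest day 16 differences and 3 highest means. Pou relatives, Krt19, Cdh1, Zfp809, Nr0b1, Sall4 and single marker genes were named outside this rule, after their values were seen. Near copies were sought with BLAST 2.17.0. Python 3.11.15 with pandas 2.3.3 and numpy 2.4.6 was used. Alternatives were a pseudocount of 0.1, a 4-fold threshold, no filter, 2 scalings, log2 ratios and Spearman correlation.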

Additional observations from a re-analysis of the deposited data

Results flagged for a closer look

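For each factor, the difference between the sorted fractions had opposite signs on day 6 (Thy-1- against Thy-1+) and day 16 (SSEA-1+ against SSEA-1-). On the log2 scale, Pou5f1 was at 1.72 on day 6 and -1.04 on day 16, Sox2 at 1.27 and -1.12, Klf4 at 1.27 and -2.44, and Myc at 1.42 and -2.68. With 1 library per fraction, this change of sign was not tested, and the sorting marker also differed between these days.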

How the results depend on the processing

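No paired analysis was possible because each condition had 1 library and no replicate number, so no library could be left out either. Over 3 alternatives (a pseudocount of 0.1, scaling to the same total FPKM, scaling by median of ratios), 83 of 84 factor differences moved by less than 1.5-fold and 0 changed sign. The median of ratios factors were 1.00 to 1.02 in the 12 libraries, so this scaling could hardly move a value. A pseudocount has little weight at most factor levels, so the count says little about robustness to either setting. With a pseudocount of 0.1, Sox2 in D3 against D0 went from 7.59 to 8.34, and the median of the Oct4 and Sox2 network in D6T- against D6T+ from 0.29 to 0.97, which follows from the lower weight of the pseudocount in low genes. The other 35 of 36 list medians stayed within 1.5-fold. All 36 ratios between factors did so too when 1 FPKM was added to both genes, which can hardly move a ratio of high levels. Scaling of a library cancels in such a ratio. Scaling to the same total FPKM moved the median of all genes from -0.02 to 0.12 for D3 against D0 and from -0.01 to -0.14 for iPSCs against D16S+, and took Pou5f1 in D16S+ against D16S- from -1.04 to -0.93.

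Counts of all genes past the threshold, given as higher and lower genes, were 816 and 1229 for D3 against D0 (216 and 350 at 4-fold, 1539 higher with a pseudocount of 0.1). They were 415 and 1342 for D6T- against D6T+ (41 and 349, and 938 and 2059), and 257 and 914 for D9T- against D9T+ (16 and 231, and 739 and 1494). For D12S+ against D12S- they were 679 and 429 (128 and 12, and 1280 and 1016), and for D16S+ against D16S- 1669 and 2162 (385 and 555 at 4-fold). They were 621 and 1101 for iPSCs against D16S+ (65 and 244, and 1026 and 2112) and 963 and 1050 for iPSCs against mESCs (175 and 135, and 1662 and 1790).

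Of the 3 genes most like each factor by Pearson correlation, Spearman correlation shared 0 for Pou5f1, Sox2 and Klf4 and 1 for Myc (Slc39a14).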
